A study of Mus musculus with 22 samples.

Results

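The tight junction genes described here are 9: the claudins Cldn3, Cldn4, Cldn5, Cldn6, Cldn7 and Cldn9, occludin (Ocln), the scaffold protein ZO-1 (Tjp1) and the junctional adhesion molecule JAM-A (F11r). They were taken by symbol, each matched 1 row, and they are 9 of the 55055 genes present in all count tables. The series measured poly(A) RNA by RNA-seq in 22 libraries from mouse embryonic stem (ES) cells and from cultures grown out of them. It compared wild-type cells with cells labelled Hox-/-, which by the series title lack all Hox function, in order to see which defects follow in embryo models. Hox genes encode transcription factors that pattern the body axis.

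There were 10 groups. Wild-type and Hox-/- ES cells (2 libraries each) were kept in serum medium with LIF, 3 µM CHIR99021 (a GSK-3 inhibitor) and 1 µM PD0325901 (a MEK inhibitor). Wild-type and Hox-/- endoderm cultures (3 libraries each) were adherent cells that received 100 ng/ml Activin A, a Nodal-like ligand, with 3 µM CHIR99021 at 24 h and at 72 h, and were collected at 120 h. Gastruloids are ES cell aggregates that pattern themselves somewhat as an early embryo does. They were treated with Activin A (wild type and Hox-/-) or with Chiron, a common name for CHIR99021 (wild type), and each such group has 2 libraries at 96 h and 2 at 120 h. Gastruloid doses are not stated in the labels, which call the cells of all but the ES groups mixed. The number of clones per genotype is not stated, and genotype and cell line therefore cannot be told apart. The labels also do not say whether replicates came from separate cultures, so the p-values measure the spread between these libraries, which may be technical.

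Tight junctions seal the space between epithelial cells near their apical side. Claudins form the strands of the seal and set which ions and solutes pass, occludin joins those strands, JAM-A is an adhesion receptor at the same site, and ZO-1 ties all of them to the actin skeleton. In the early embryo, epithelial cells that pass through an epithelial-to-mesenchymal transition take such junctions apart, and the repressors Snail and Zeb can bind E-boxes in the promoters of adhesion and claudin genes.

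Total counts ran from 9.11 to 28.8 M per library. In the gastruloids the 96 h libraries held 14.95 to 28.8 M and the 120 h libraries 9.11 to 11.9 M, so time and depth go together. A group in which every library holds 3 counts or fewer is treated as at the floor. The 39 Hox genes, summed, checked the labels: they stood at 625 to 660 CPM (the count scaled by the library total) in wild-type Activin A gastruloids at 96 h and 102 to 104 CPM in Hox-/-, at 1167 to 1190 and 63.8 to 69.5 CPM at 120 h, at 828 to 877 and 22.5 to 28.6 CPM in endoderm, and at 30.4 to 35.7 and 0.448 to 1.34 CPM in ES cells. Of the labelled tissues, the ES libraries held 6986 to 7390 CPM of 8 pluripotency markers, and the endoderm cultures 240.3 to 251 CPM of 10 endoderm markers in wild type and 89.3 to 97.3 CPM in Hox-/-, where Afp was at the floor.

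The promoter sequence of 8 of the 9 genes was matched in RefSeq (build GRCm38.p6), and Cldn9 had no entry. The only Tjp1 promoter sequence, chr7:65371245-65371494 on the minus strand, lies inside the gene, whose annotated 5′ end is at 65527781. The bases before that end were not searched. The 250 bases before each annotated start were searched on both strands for the Snail and Zeb E-box, CACCTG or CAGGTG, and for the Grainyhead core, ACCGGT, which reads the same on both strands; no copies of the 2 motifs can overlap. The E-box was found in 5 of the 8 genes (Cldn4, Cldn6, Cldn7, Ocln and F11r), in 5 of their 10 windows, against 17.2% of all 32851 windows in the table. The Grainyhead core was found in none of them, against 1.86% of all windows. These matches describe letters in a window and are not measured binding. The windows of 3 genes are shown because Cldn4 and Cldn3, neighbours on chromosome 5 that were both lower in Hox-/- Activin A gastruloids at 120 h, differ in holding the motif, and because F11r, which was higher there, holds it too. Of the other genes searched, Cldn6, Cldn7 and Ocln were also lower there and hold it. Cldn5 and Tjp1 were not called there and lack it in the windows searched. A link between the motif and the levels was not tested. The sequences run 5′ to 3′ on the gene's strand, end before the first annotated exon, and carry the E-box in capitals:
Cldn4 (chr5:134946935-134947184, minus strand): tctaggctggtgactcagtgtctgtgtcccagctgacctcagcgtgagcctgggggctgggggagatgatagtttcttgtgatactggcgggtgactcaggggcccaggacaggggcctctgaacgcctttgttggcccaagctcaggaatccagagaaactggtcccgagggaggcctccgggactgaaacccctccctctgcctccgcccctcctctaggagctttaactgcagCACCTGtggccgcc
Cldn3 (chr5:134985964-134986213, plus strand): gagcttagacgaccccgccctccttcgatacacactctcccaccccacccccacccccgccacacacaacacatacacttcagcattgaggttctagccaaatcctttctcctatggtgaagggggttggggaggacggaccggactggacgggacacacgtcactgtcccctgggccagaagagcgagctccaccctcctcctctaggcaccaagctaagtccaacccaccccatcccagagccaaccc
F11r (chr1:171437311-171437534, plus strand): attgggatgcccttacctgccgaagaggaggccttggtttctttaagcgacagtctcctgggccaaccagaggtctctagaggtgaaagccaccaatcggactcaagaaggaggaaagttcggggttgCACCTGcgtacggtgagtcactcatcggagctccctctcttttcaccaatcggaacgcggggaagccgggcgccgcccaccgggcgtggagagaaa

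The other matches lay inside exons that the gene annotation marks as 5′ untranslated, so only the match with its flanks is shown, on the gene's strand and again with the E-box in capitals. One match in Cldn7 and one in Ocln span the end of an exon, where the same letters occur in splice donors:
Cldn6 (chr17:23679260-23679289, plus strand): gggaaacgcacgCAGGTGgctatcgccgca
Cldn7, first match (chr11:69965312-69965341, plus strand): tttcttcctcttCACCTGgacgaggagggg
Cldn7, second match, at an exon end (chr11:69965352-69965381, plus strand): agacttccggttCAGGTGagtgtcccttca
Ocln, first match (chr13:100552694-100552723, minus strand): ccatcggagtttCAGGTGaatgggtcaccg
Ocln, second match, at an exon end (chr13:100552549-100552578, minus strand): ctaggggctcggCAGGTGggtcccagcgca

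Cldn6, a claudin of embryonic epithelia, lies at chr17:23679249-23682446 on the plus strand of GRCm38, and its levels spanned 60.6-fold between the highest and lowest group means. CPM levels are set side by side here across 4 tables that were deposited separately. In ES cells it stood at 2.26 and 3.50 CPM in wild type and at 2.32 and 3.36 CPM in Hox-/-. Wild-type endoderm held 155, 159 and 143 CPM and Hox-/- endoderm 64.6, 56.9 and 68.2 CPM. The endoderm groups did not overlap, while those of ES cells did. In Activin A gastruloids at 96 h Cldn6 stood at 142 and 167 CPM in wild type and 21.4 and 19.995 CPM in Hox-/-. At 120 h it stood at 173 and 171 CPM in wild type and 7.33 and 7.95 CPM in Hox-/-. Chiron gastruloids, all wild type, held 22.7 and 23.8 CPM at 96 h and 7.54 and 9.75 CPM at 120 h, close to the Hox-/- Activin A libraries of the same age. The 3 highest groups were the wild-type endoderm and the wild-type Activin A gastruloids of both times; the 96 h gastruloids overlapped the endoderm in range.

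Cldn7, a claudin of many epithelia that is also found along the lateral membrane, lies at chr11:69964779-69967885 on the plus strand. It had the widest range of the 9 genes, 78.1-fold between group means. ES cells held 0.730 and 0.466 CPM in wild type and 0.374 and 0.840 CPM in Hox-/-. Endoderm held 46.4, 48.1 and 45.7 CPM in wild type and 21.1, 18.7 and 20.9 CPM in Hox-/-. Both endoderm groups stood far above the ES cells, and wild type above Hox-/- without overlap. Activin A gastruloids at 96 h held 32.8 and 35.0 CPM in wild type and 16.7 and 16.9 CPM in Hox-/-. At 120 h they held 24.8 and 23.3 CPM in wild type but 0.690 and 1.40 CPM in Hox-/-, which overlapped the ES cells. Chiron gastruloids held 1.02 and 1.42 CPM at 96 h and 1.93 and 1.80 CPM at 120 h, below every wild-type Activin A library.

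Cldn4, a claudin that tightens the barrier to cations and is abundant in ES cells, lies at chr5:134945119-134946934 on the minus strand, 39279 bases from Cldn3. It stood at similar levels in ES cells (83.1 and 81.3 CPM for wild type, 86.2 and 79.2 CPM in Hox-/-) and in endoderm (79.6, 102 and 118 CPM for wild type, 82.4, 59.9 and 68.0 CPM in Hox-/-), with neighbouring groups overlapping. All gastruloid libraries held less, in tables of their own. Activin A libraries of 96 h held 39.8 and 42.9 CPM in wild type and 45.1 and 45.8 CPM in Hox-/-. Those of 120 h held 37.8 and 37.7 CPM in wild type and 2.15 and 1.87 CPM in Hox-/-, the lowest group. Chiron gastruloids held 18.8 and 22.8 CPM at 96 h and 12.2 and 11.8 CPM at 120 h.

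Cldn3, another barrier-forming claudin, lies at chr5:134986214-134987472 on the plus strand. An antisense gene, Wbscr25, overlaps it, and the use of strand in the counting is not given in the sources used here, so its values are uncertain to that extent. It was highest in Hox-/- Activin A gastruloids at 96 h, with 17.0 and 19.2 CPM, followed by wild type at the same time with 13.1 and 14.3 CPM. At 120 h wild type held 6.92 and 8.45 CPM and Hox-/- 0.431 and 0.748 CPM, from 5 and 8 counts. The order of the genotypes was thus opposite at the 2 times, with no overlap at either. Endoderm held 5.76, 7.19 and 8.90 CPM in wild type and 4.72, 3.44 and 4.03 CPM in Hox-/-. ES cells held 3.59 and 2.10 CPM in wild type and 2.39 and 1.68 CPM in Hox-/-, and Chiron gastruloids 1.80 and 2.15 CPM at 96 h and 1.42 and 1.27 CPM at 120 h.

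Cldn9, a claudin known from the inner ear, lies at chr17:23682584-23684026 on the minus strand. Its 3′ end faces that of Cldn6 with 137 bases between them. Wild-type Activin A gastruloids held 1.51 and 1.63 CPM at 96 h and 6.49 and 5.27 CPM at 120 h. Hox-/- ones held 3 counts in each library at 96 h, which is the floor, and 1.38 and 0.935 CPM (16 and 10 counts) at 120 h. Endoderm was near the highest group in both genotypes, with 5.03, 4.02 and 5.18 CPM in wild type and 5.28, 5.66 and 4.79 CPM in Hox-/-, which overlapped. Chiron gastruloids held 3.65 and 4.27 CPM at 96 h and 1.93 and 3.39 CPM at 120 h, and ES libraries at most 7 counts. Cldn9 therefore did not follow its neighbour Cldn6 in endoderm, nor between the treatments at 96 h, where Chiron was above wild-type Activin A. Between the genotypes in Activin A gastruloids at 96 h, both genes were lower in Hox-/-.

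Cldn5, the claudin of the endothelial barrier, lies at chr16:18776847-18778262 on the plus strand and was low everywhere, at no more than 53 counts in any library. Endoderm held the most, 3.41, 3.17 and 3.87 CPM in wild type and 2.05, 1.85 and 1.95 CPM in Hox-/-, without overlap. In Activin A gastruloids it stood at 0.800 and 0.581 CPM in wild type and 0.281 and 0.267 CPM in Hox-/- at 96 h, and at 0.973 and 1.54 CPM in wild type and 1.81 and 1.59 CPM in Hox-/- at 120 h. Chiron gastruloids (0.292 and 0.347 CPM at 96 h, 0.838 and 0.742 CPM at 120 h) and ES cells (0.266 and 0.544 CPM for wild type, 0.822 and 0.924 CPM in Hox-/-) stayed under 1 CPM. These values rest on 4 to 21 counts per library outside endoderm.

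Ocln lies at chr13:100496507-100552718 on the minus strand. It stood at 15.9, 13.2 and 13.6 CPM in wild-type endoderm and 8.29, 7.44 and 8.25 CPM in Hox-/- endoderm. At 96 h the Activin A gastruloids were alike in level, 12.6 and 12.7 CPM in wild type against 11.4 and 11.8 CPM in Hox-/-. At 120 h wild type held 9.19 and 5.82 CPM, a wide gap between replicates, and Hox-/- 0.603 and 1.31 CPM. ES cells held 4.51 and 5.13 CPM in wild type and 3.66 and 3.95 CPM in Hox-/-, and Chiron gastruloids 4.43 and 5.17 CPM at 96 h and 2.43 and 2.54 CPM at 120 h. The Hox-/- Activin A libraries at 120 h were the lowest of all groups for Ocln, Cldn3 and Cldn4.

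F11r lies at chr1:171437535-171464603 on the plus strand and had another pattern. It was highest in Chiron gastruloids at 96 h, at 309.7 and 316 CPM, and stood at 131 and 125 CPM there at 120 h. Activin A gastruloids held 125 and 131 CPM in wild type and 111 and 109 CPM in Hox-/- at 96 h. At 120 h wild type held 115 and 119.8 CPM and Hox-/- 155 and 154 CPM, so that Hox-/- was the higher genotype at that time. Endoderm held 106, 100.2 and 94.8 CPM in wild type and 81.0, 83.1 and 89.4 CPM in Hox-/-, and ES cells 58.8 and 59.5 CPM and 56.3 and 55.3 CPM. Of its 50-base stretches, 0.868% also occur in transcripts of other genes; for the other 8 genes none do.

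Tjp1 lies at chr7:65296165-65527781 on the minus strand, where the annotated genes Gm44794, Gm44795 and Gm44792 overlap it. It varied least: the highest group mean was 2.05 times the lowest. ES cells held 182 and 189 CPM in wild type and 208 and 219.7 CPM in Hox-/-, and endoderm 227, 230.4 and 236 CPM and 234, 242 and 227 CPM. Gastruloid libraries lay between 108 CPM (wild-type Activin A, 120 h) and 154 CPM (wild-type Activin A, 96 h). The 3 groups at 120 h had means of 114 to 116 CPM and did not differ beyond their spread.

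**Figure D1:**
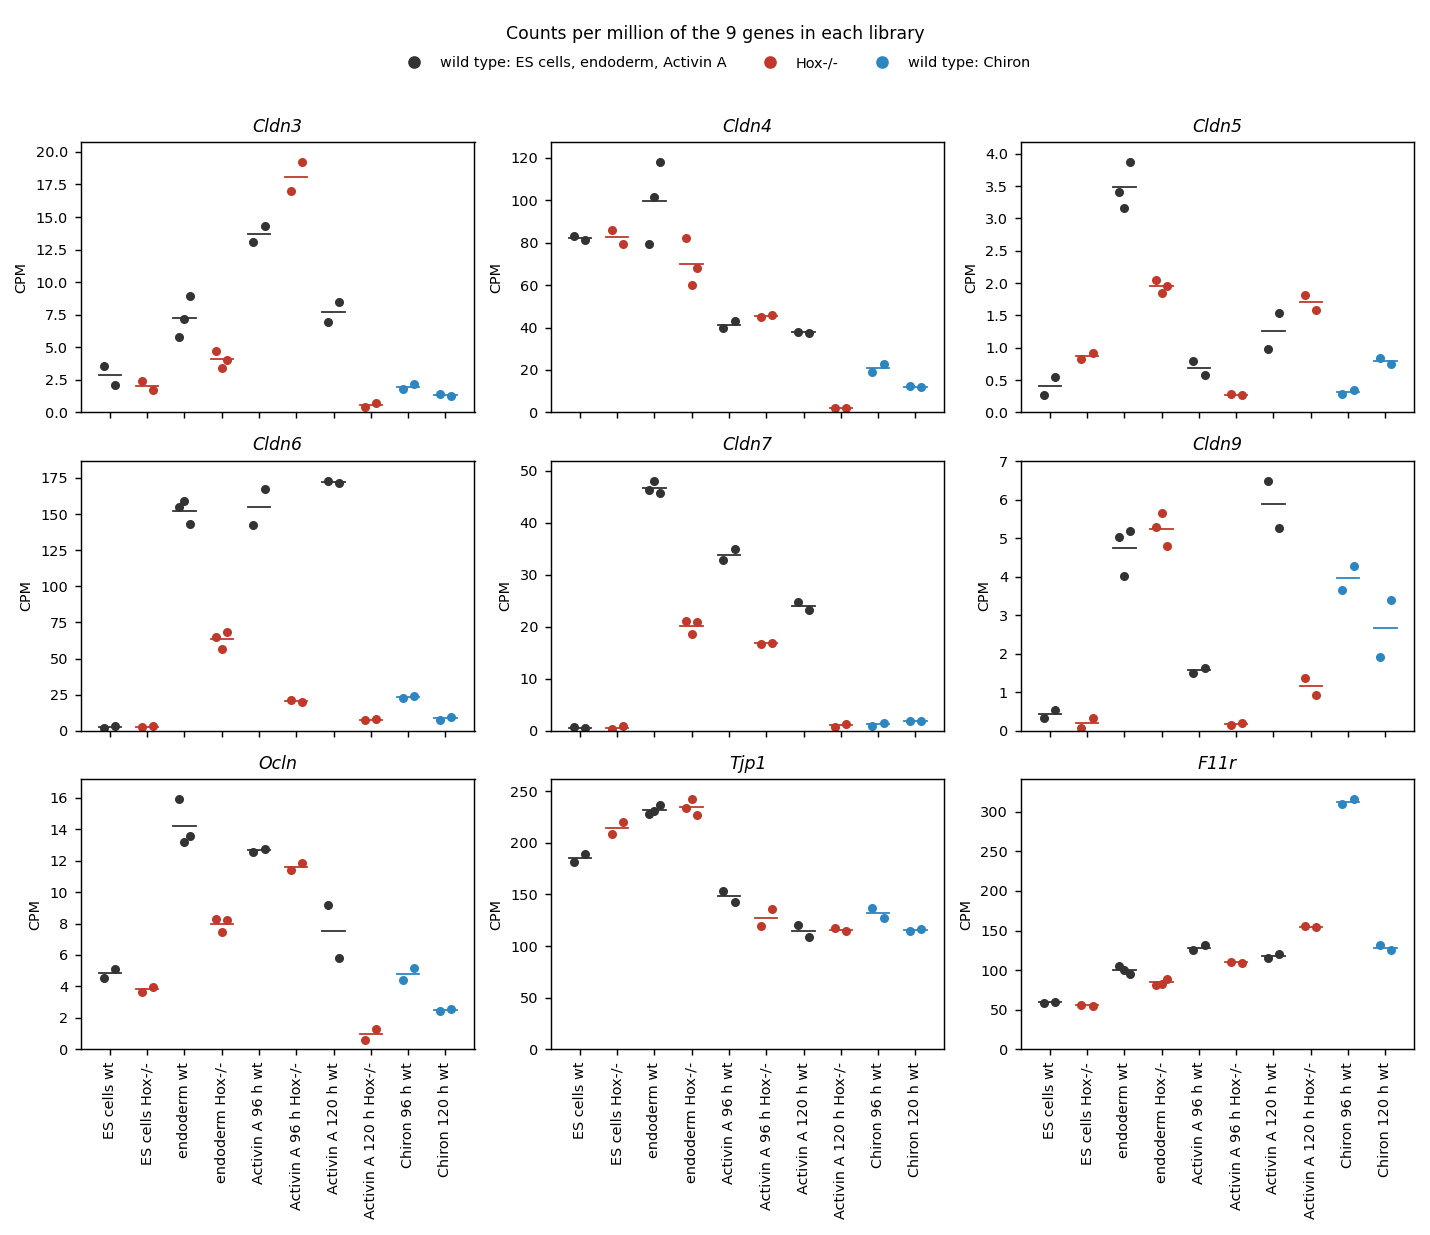
CPM of the 9 genes (linear axes from 0) in each of the 22 libraries, grouped along the horizontal axis by culture, time and genotype; points are libraries and lines are group means. In Hox-/- Activin A gastruloids at 120 h Cldn6, Cldn7, Cldn4, Cldn3 and Ocln stood at or under 7.95 CPM, below the wild-type Activin A libraries of the same age, while F11r and Tjp1 stood at 114 CPM or more.

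Which claudin was most abundant depended on the group. On the deposited FPKM scale, which is per transcript length and so allows genes to be compared, the 33 claudins in the tables summed to 62.6 and 63.7 FPKM in wild-type ES cells, and Cldn4 made up 73.7% of that sum (group mean). The deposited sets of FPKM were normalized separately, so sums set side by side between cultures are uncertain to that extent. In wild-type endoderm the sum was 222 to 238 FPKM, and Cldn6 led with 44.3%, ahead of Cldn4 with 23.9% and Cldn7 with 18.2%. In Hox-/- endoderm the sum was 112 to 133 FPKM, with 34.1% from Cldn6 and 31.3% from Cldn4. Wild-type Activin A gastruloids were led by Cldn6 at both times, with 56.4% at 96 h and 57.4% at 120 h, within sums of 173 to 193 and 181 to 187 FPKM. In Hox-/- Activin A gastruloids Cldn4 led at 96 h with 29.6%, in a sum of 82.5 to 83.7 FPKM. At 120 h the sum was 31.7 to 31.9 FPKM and Cldn12, a claudin outside the 9 genes, led with 49.99%, followed by Cldn11 with 15.7%. The 6 claudins described here made up 84.1% of claudin FPKM in wild type at that time and 30.1% in Hox-/-. Cldn12 also led in Chiron gastruloids, with 32.1% at 96 h (Cldn6 29.4%) and 51.9% at 120 h. In bulk RNA, fewer cells that express a gene and less of its RNA per cell cannot be told apart, here and in all that follows.

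**Figure D2:**
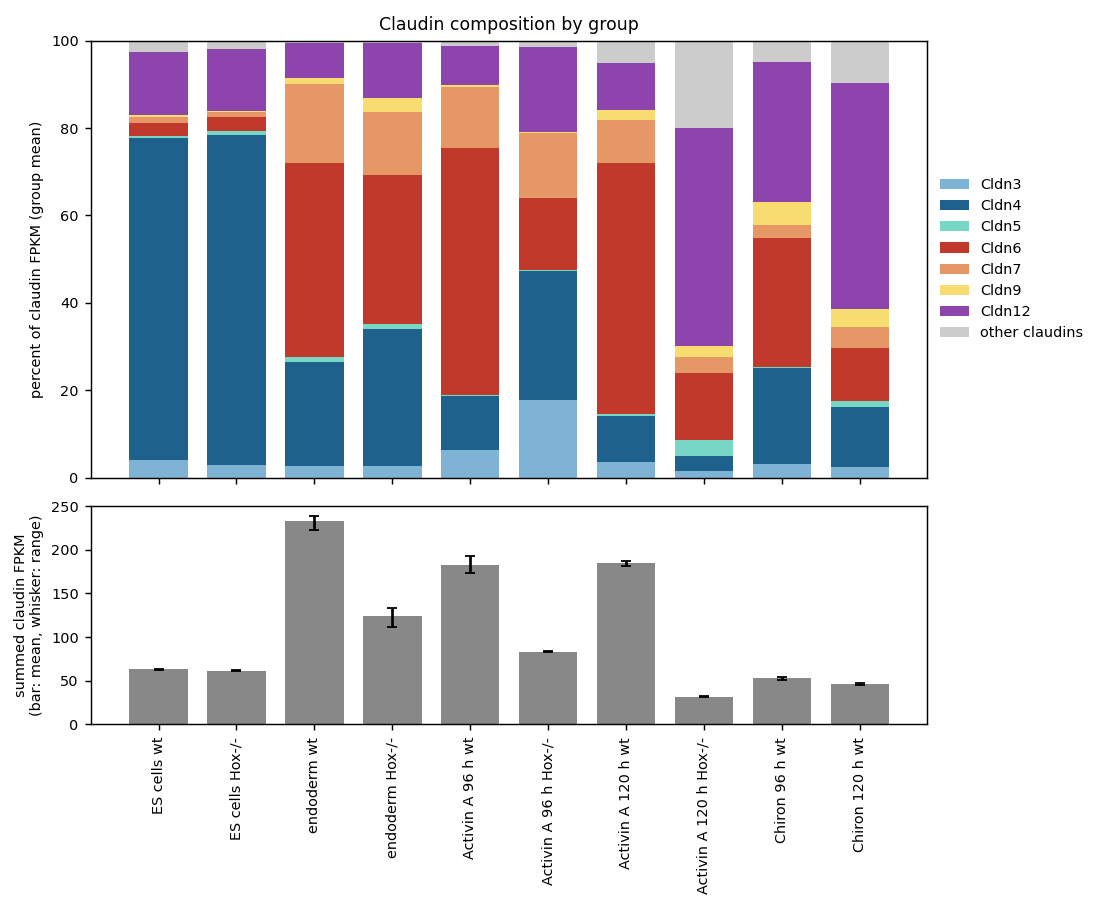
Upper panel: percent of summed claudin FPKM contributed by each claudin (mean over the libraries of a group; 33 claudins, those not named in grey). Lower panel: the summed claudin FPKM, with bars as group means from 0 and whiskers as the range of the libraries. The deposited sets of FPKM were normalized separately. Cldn4 leads in ES cells, Cldn6 in wild-type endoderm and wild-type Activin A gastruloids, and Cldn12 in Hox-/- Activin A gastruloids at 120 h and in Chiron gastruloids.

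Of the 7 genes that could be tested between Hox-/- and wild-type ES cells, 1 was called (adjusted p under 0.05, edgeR's quasi-likelihood test over all genes tested), against 23.2% of all genes in that comparison (12.4% higher, 10.8% lower): Tjp1 was higher in Hox-/- by a log2 fold change of 0.20 ± 0.05 (SE; adjusted p = 0.00194). That call was lost without wild-type replicate 1 (adjusted p = 0.123) and in limma on FPKM. The largest fitted difference was that of Cldn5 (1.12 ± 0.53, adjusted p = 0.126), whose groups did not overlap but which did not pass the test, and Cldn3 stood at -0.49 ± 0.29 (adjusted p = 0.225). Cldn7 and Cldn9 had too few counts to be tested. The median log2 fold change of the 7 was -0.01, against 0.0006 for all genes.

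The step from ES cells to endoderm raised nearly all of them. In wild type, where 79.9% of all genes were called (41.6% higher, 38.3% lower), 8 of 9 were higher in endoderm and none lower; Cldn4 was not called (log2 fold change 0.16 ± 0.12, adjusted p = 0.223), though it was under 3 of the alternatives, among them the fit without wild-type endoderm replicate 1 (0.305, adjusted p = 0.0122). Cldn7 rose 69.9-fold (log2 6.13 ± 0.18) and Cldn6 49.4-fold (5.63 ± 0.13), followed by Cldn9 with 9.95-fold (3.31 ± 0.32) and Cldn5 with 7.97-fold (2.99 ± 0.34). In wild-type ES cells these folds rest on 17 counts in all for Cldn7, 79 for Cldn6, 12 for Cldn9 and 11 for Cldn5. With few counts, here and in what follows, the SE of a large change can be smaller than counting error alone. Ocln rose 2.72-fold, Cldn3 2.33-fold, F11r 1.56-fold and Tjp1 1.15-fold. In Hox-/- cells, where 80.6% of all genes were called (42.7% higher, 37.9% lower), 7 rose and 1, Cldn4, was lower (-0.32 ± 0.12, adjusted p = 0.0239); Tjp1 was not called (0.05 ± 0.05, adjusted p = 0.351). Without Hox-/- ES replicate 2 the rise of Cldn3 was not called (adjusted p = 0.0774), and the call of Cldn4 was lost without Hox-/- ES replicate 1 (0.145) or without Hox-/- endoderm replicate 2 (0.108) or 3 (0.0599). The ES libraries held 11.9 to 15.1 M counts and the endoderm libraries 12.3 to 17.6 M. Both were deposited as separate tables, and these fits join their counts.

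Within endoderm, 7 of the 9 genes were lower in Hox-/- and none higher, in a comparison where 46.2% of all genes were called, with 23.1% in each direction. Cldn6 (log2 fold change -1.26 ± 0.07, adjusted p = 2.54e-09) and Cldn7 (-1.20 ± 0.07, adjusted p = 7.86e-09) fell the most. Cldn3 (-0.83 ± 0.18), Cldn5 (-0.82 ± 0.19) and Ocln (-0.82 ± 0.11) stood at 1.76- to 1.78-fold lower levels. Cldn4 (-0.50 ± 0.12) and F11r (-0.24 ± 0.06) were lower by less, and Cldn4 was not called in limma on log2(FPKM + 1) (adjusted p = 0.0963) or on log2(FPKM + 0.1) (0.055). Cldn9 (0.16 ± 0.15, adjusted p = 0.418) and Tjp1 (0.03 ± 0.05, adjusted p = 0.676) did not pass the test. The median over the 9 genes was -0.82, against 0.0017 for all genes. The difference between the genotype effects in endoderm and in ES cells was tested by an interaction, which called 24.1% of all genes (11.6% higher, 12.5% lower) and 3 of the 9, all with the more negative effect in endoderm: Cldn5 (-1.92 ± 0.51, adjusted p = 0.00967), Cldn6 (-1.22 ± 0.29, adjusted p = 0.00408) and Cldn4 (-0.48 ± 0.17, adjusted p = 0.0499). The call of Cldn6 was lost without Hox-/- ES replicate 2 (0.0901), that of Cldn5 without wild-type ES replicate 1 (0.0881), and that of Cldn4 under DESeq2 (0.203) and when any of 8 of the 10 libraries was left out (0.0679 to 0.16).

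In Activin A gastruloids at 96 h the 9 genes split: 6 were lower and 2 higher in Hox-/-, with 38.9% of all genes called (22.2% higher, 16.7% lower). Cldn6 was lower by a log2 fold change of -2.84 ± 0.06 (7.18-fold, adjusted p = 2.71e-37) and Cldn7 by -0.96 ± 0.08 (1.95-fold, adjusted p = 9.70e-15). Cldn9 was 9.53 times higher in wild type than in Hox-/-, where 6 counts were found in all (95% counting interval 4.18 to 26.8; adjusted p = 1.92e-07). Cldn5 (-1.24 ± 0.50, adjusted p = 0.0438), Tjp1 (-0.17 ± 0.05) and F11r (-0.17 ± 0.04) were also lower. Cldn3 (0.44 ± 0.09, adjusted p = 0.000169) and Cldn4 (0.19 ± 0.06, adjusted p = 0.00916) were higher, and Ocln was not called (-0.07 ± 0.11, adjusted p = 0.632). The median was -0.17, against 0.035 for all genes. The small changes were less stable: the call of Cldn5 was lost when any 1 library of the comparison was left out (adjusted p 0.0587 to 0.239), that of Tjp1 without wild-type replicate 1 (0.115) or Hox-/- replicate 1 (0.349), that of Cldn4 without wild-type replicate 1 (0.152) and with total counts as the scaling (0.0648), and that of F11r without wild-type replicate 2 (0.0545). DESeq2 called neither Cldn4 (0.158), Cldn5 (0.189) nor Tjp1 (0.0901), and limma on log2(FPKM + 1) did not call Cldn3 either (0.15).

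At 120 h 6 of the 9 genes, the claudins other than Cldn5 together with occludin, were lower in Hox-/- by 4.65-fold or more. In all, 6 were lower and 1 higher, where 50.4% of all genes were called (24.9% higher, 25.5% lower). The 4 main epithelial claudins were lower by 12.0- to 21.4-fold: Cldn7 by a log2 fold change of -4.42 ± 0.20 (adjusted p = 1.29e-24), Cldn6 by -4.38 ± 0.09 (1.08e-38), Cldn4 by -4.11 ± 0.15 (1.20e-28) and Cldn3 by -3.59 ± 0.31 (4.41e-14). Ocln was 7.33-fold lower (-2.87 ± 0.30, adjusted p = 9.65e-12) and Cldn9 4.65-fold lower (-2.22 ± 0.30, adjusted p = 1.30e-08). F11r went the other way and was 1.42-fold higher (0.51 ± 0.05, adjusted p = 1.33e-12). Cldn5 (0.55 ± 0.40, adjusted p = 0.256) and Tjp1 (0.13 ± 0.06, adjusted p = 0.0572) were not called, but Tjp1 was called as higher under 5 alternatives, among them the fit without wild-type replicate 1 (0.216, adjusted p = 0.0111). The median over the 9 genes was -2.87, against -0.02 for all genes.

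**Figure D3:**
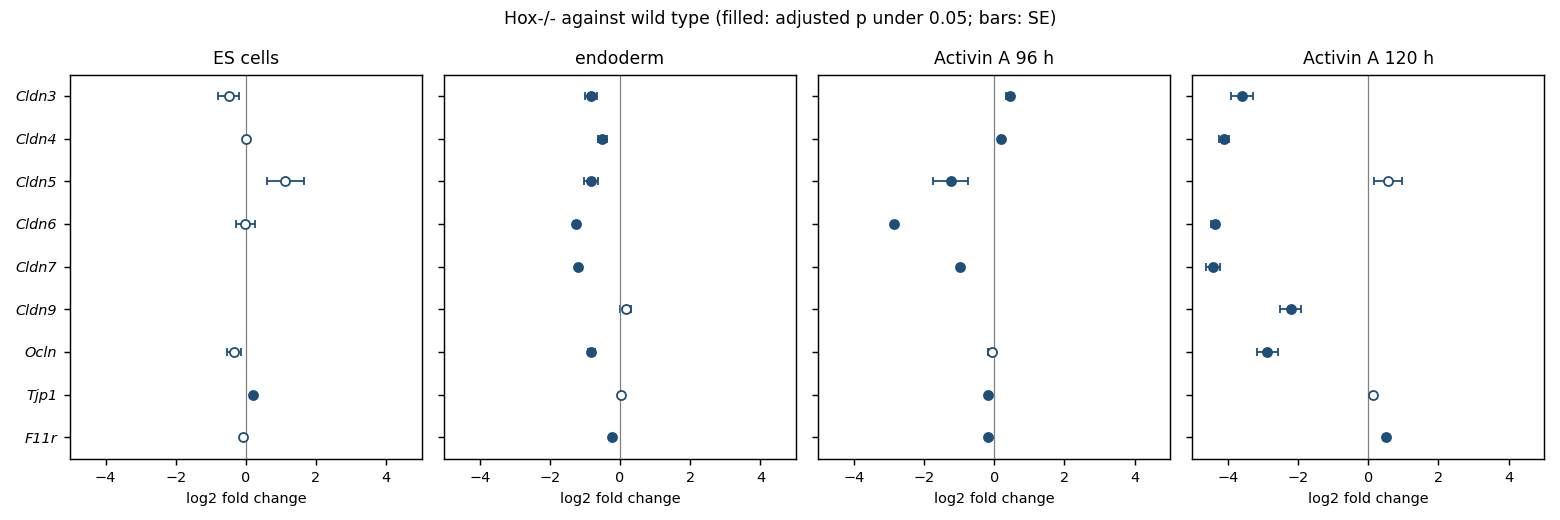
Log2 fold change of Hox-/- against wild type for the 9 genes in 4 cultures (points; bars are SE; filled points have an adjusted p under 0.05). Cldn7 and Cldn9 in ES cells were not tested, and Cldn9 at 96 h is not drawn because its Hox-/- libraries are at the floor; at 120 h 6 genes lie between -4.42 and -2.22 and F11r lies at 0.51.

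The change of the genotype effect between 96 h and 120 h was tested as an interaction, which called 38.9% of all genes (18.7% more positive at 120 h, 20.2% more negative) and 8 of the 9. It was more negative at 120 h for Cldn4 (-4.29 ± 0.16), Cldn3 (-4.03 ± 0.32), Cldn7 (-3.46 ± 0.24), Ocln (-2.80 ± 0.32) and Cldn6 (-1.54 ± 0.14), with adjusted p of 6.05e-10 or less. It was more positive for Cldn5 (1.79 ± 0.64, adjusted p = 0.0220), F11r (0.68 ± 0.06, adjusted p = 2.88e-12) and Tjp1 (0.30 ± 0.08, adjusted p = 0.00120). For Cldn9 no difference between the times passed the test (0.92 ± 0.64, adjusted p = 0.264), and its direction was the opposite in limma on log2(FPKM + 1). The Cldn5 call was lost without either Hox-/- replicate of 96 h (0.0785 and 0.0550), without wild-type replicate 1 of 96 h (0.108) or of 120 h (0.0987), without Hox-/- replicate 1 of 120 h (0.0791), and under DESeq2 (0.116).

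From 96 h to 120 h Cldn3, Cldn4, Cldn7 and Ocln fell in Activin A gastruloids of both genotypes, and by more in Hox-/- than in wild type. In wild type, with 74.9% of all genes called (37.2% higher, 37.8% lower), 6 of the 9 were lower at 120 h and 1 higher, and no fall went beyond 1.88-fold: Cldn3 by a log2 fold change of -0.91 ± 0.14, Ocln by -0.83 ± 0.15, Cldn7 by -0.57 ± 0.09, Tjp1 by -0.45 ± 0.05, Cldn4 by -0.21 ± 0.07 and F11r by -0.20 ± 0.05. Cldn9 rose 3.54-fold (1.82 ± 0.24, adjusted p = 2.28e-09). Cldn6 was not called (0.08 ± 0.05, adjusted p = 0.174), with a call as higher under total-count scaling (0.150, adjusted p = 0.00676) and without wild-type replicate 2 of 96 h (0.193, adjusted p = 0.00156), and the opposite sign without replicate 1 of 96 h (-0.039). The call of Cldn4 was lost without replicate 2 of 96 h (0.0918) or of 120 h (0.0566). In Hox-/-, with 72.4% of all genes called (34.9% higher, 37.6% lower), Cldn3 fell 30.8-fold (-4.94 ± 0.23), Cldn4 22.7-fold (-4.50 ± 0.13), Cldn7 16.3-fold (-4.03 ± 0.20), Ocln 12.4-fold (-3.63 ± 0.24) and Cldn6 2.76-fold (-1.46 ± 0.13), all with adjusted p of 1.93e-14 or less. Tjp1 was lower by -0.15 ± 0.05, which was not called without Hox-/- replicate 2 of 96 h (0.346) or of 120 h (0.134). Cldn5 (2.58 ± 0.47) and F11r (0.47 ± 0.05) were higher, and Cldn9 had 26 counts at 120 h against 6 at 96 h, a ratio of 7.06 (95% counting interval 2.84 to 21.0). In Chiron gastruloids, with 61.7% of all genes called (28.5% higher, 33.2% lower), 6 were lower at 120 h and 1 higher. F11r fell 2.62-fold (-1.39 ± 0.05), Cldn6 2.94-fold (-1.55 ± 0.13), Ocln 2.10-fold (-1.07 ± 0.23) and Cldn4 1.88-fold (-0.91 ± 0.11), and Tjp1 was lower by -0.29 ± 0.06. Cldn9 was lower (-0.73 ± 0.24, adjusted p = 0.0121), which was not called without Chiron replicate 1 of 120 h (-0.361, adjusted p = 0.311) or replicate 2 of 96 h (0.0746), nor under DESeq2 (0.0772). Cldn5 was higher (1.17 ± 0.50, adjusted p = 0.0472), which was not called without any 1 of the 4 Chiron libraries (0.0911 to 0.229). Cldn3 (-0.66 ± 0.29, adjusted p = 0.0511) and Cldn7 (0.47 ± 0.28, adjusted p = 0.155) were not called, Cldn3 being called as lower without replicate 1 of 96 h (0.0427). Since the 120 h libraries are the shallower ones, depth cannot be told apart from time in these values.

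Between the treatments, wild-type Activin A gastruloids held more of the epithelial claudins and occludin than Chiron gastruloids of the same age. These comparisons use the same 4 wild-type Activin A libraries as the genotype comparisons above. The 2 Chiron libraries of 96 h, which also enter the change over time above, differed more from each other than those of any other group. Their chi-square per degree of freedom over the genes was 10.3, against 1.37 to 4.76 in the other groups. At 96 h, with 61.6% of all genes called (31.3% higher, 30.2% lower), 6 of the 9 were higher and 2 lower with Activin A. Cldn7 was 25.8-fold higher (4.69 ± 0.13, adjusted p = 2.15e-19), Cldn3 6.55-fold (2.71 ± 0.15), Cldn6 6.36-fold (2.67 ± 0.07), Ocln 2.50-fold (1.32 ± 0.14) and Cldn4 1.89-fold (0.92 ± 0.08). Cldn5 was higher by 1.00 ± 0.43 (adjusted p = 0.0476), a call lost without any 1 of the 4 libraries compared (0.0547 to 0.240). Cldn9 (-1.40 ± 0.22, adjusted p = 7.21e-06) and F11r (-1.35 ± 0.05, adjusted p = 3.48e-17) were lower with Activin A. Tjp1 was not called (0.11 ± 0.06, adjusted p = 0.0994), though it was called as higher without Activin A replicate 2 (0.0272) or Chiron replicate 1 (0.00275) and with total counts as the scaling (0.0111). At 120 h, with 41.9% of all genes called (20.3% higher, 21.6% lower), 6 were higher and 1 lower. Cldn6 was 19.4-fold higher (4.28 ± 0.10, adjusted p = 1.26e-19), Cldn7 12.3-fold (3.62 ± 0.18), Cldn3 5.44-fold (2.44 ± 0.26), Cldn4 3.03-fold (1.60 ± 0.12), Ocln 2.92-fold (1.54 ± 0.24) and Cldn9 2.19-fold (1.13 ± 0.26). F11r was lower by -0.18 ± 0.06 (adjusted p = 0.0147). Cldn5 (0.60 ± 0.46, adjusted p = 0.321) and Tjp1 (-0.07 ± 0.06, adjusted p = 0.407) were not called. The call of Cldn9 was lost without Chiron replicate 1 (0.749, adjusted p = 0.0626), and that of F11r without Chiron replicate 1 (0.147), without Activin A replicate 1 (0.150) and with total counts as the scaling (0.0794). The medians were 1.00 at 96 h and 1.54 at 120 h, against -0.0012 and -0.0097 for all genes.

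**Figure D4:**
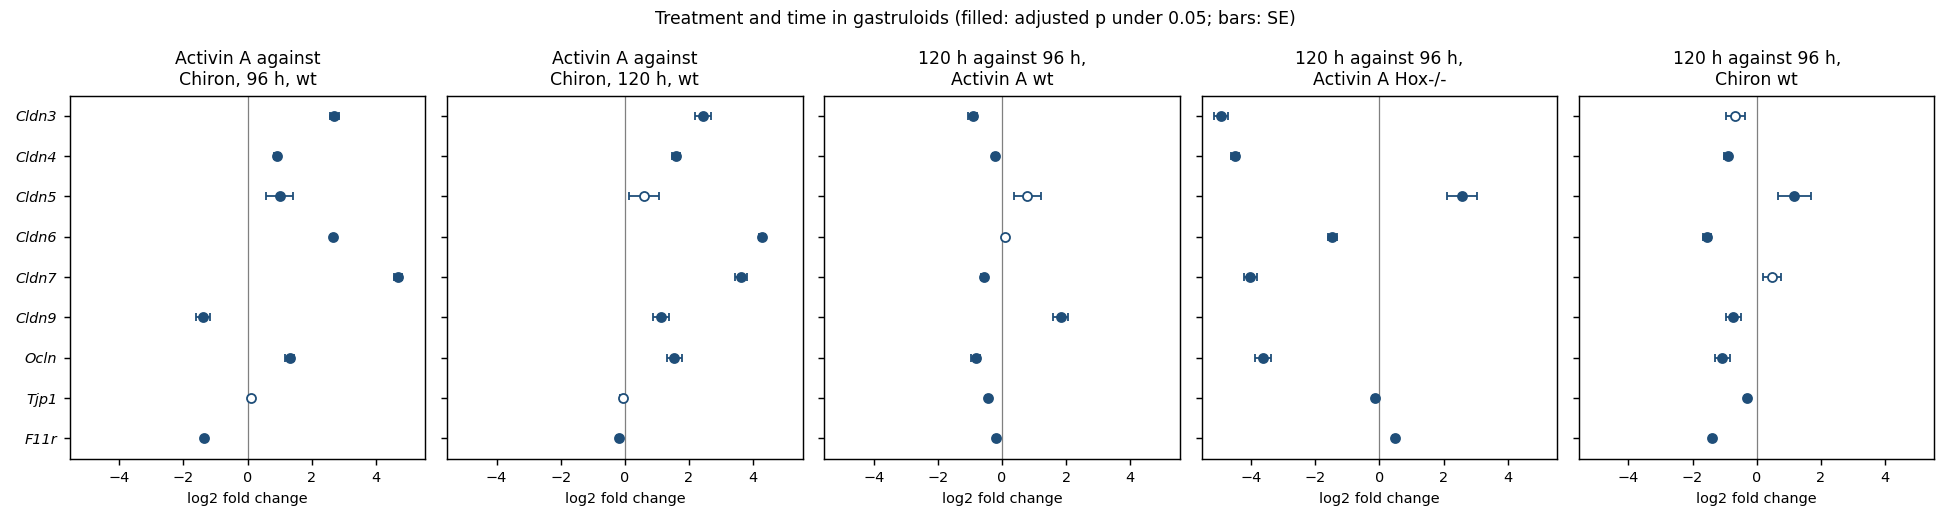
Log2 fold change of the 9 genes between treatments and between times in gastruloids (points; bars are SE; filled points have an adjusted p under 0.05; wt is wild type). Cldn9 over time in Hox-/- is not drawn because its 96 h libraries are at the floor; Cldn3, Cldn4, Cldn7 and Ocln lie between -4.94 and -3.63 there, and between -0.91 and -0.21 in wild type.

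The treatment effect itself changed between 96 h and 120 h for 5 of the 9 genes, where 39.6% of all genes were called in that interaction (21.7% more positive, 18% more negative). It was more positive at 120 h for Cldn9 (2.53 ± 0.34, adjusted p = 2.38e-06), Cldn6 (1.61 ± 0.14, adjusted p = 3.47e-09), F11r (1.17 ± 0.08, adjusted p = 1.01e-11) and Cldn4 (0.68 ± 0.14, adjusted p = 0.000529). It was smaller at 120 h for Cldn7 (-1.06 ± 0.30, adjusted p = 0.00665), a call lost without Chiron replicate 1 of 120 h (0.0747) and in limma on FPKM. Cldn3, Cldn5, Ocln and Tjp1 were not called, with Tjp1 called without Chiron replicate 1 of 96 h (-0.248, adjusted p = 0.0115).

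Other genes of the junction and of the epithelial state were read from 5 further lists. Their counts stand against the shares of all genes called in the same comparison: 12.4% higher and 10.8% lower in Hox-/- ES cells, 23.1% each way in endoderm, 22.2% higher and 16.7% lower at 96 h, 24.9% higher and 25.5% lower at 120 h, and, with Activin A against Chiron, 31.3% higher and 30.2% lower at 96 h and 20.3% higher and 21.6% lower at 120 h. Of 17 genes of epithelial adhesion and its regulators (such as E-cadherin, keratins and desmosomal proteins), 16 were tested at 120 h in Activin A gastruloids and all 16 were lower in Hox-/-, with a median log2 fold change of -3.27. The 3 with the smallest p were the keratin Krt18 (-4.93 ± 0.10), the E-cadherin gene Cdh1 (-3.90 ± 0.08) and Krt8 (-3.24 ± 0.07). At 96 h 11 of 16 were lower and none higher, led by the desmosomal cadherin Dsg2 (-1.27 ± 0.07), and in endoderm 14 of 16 were lower and none higher, led by the protease inhibitor Spint2 (-0.77 ± 0.05). In ES cells 3 of 15 were higher and 4 lower. With Activin A against Chiron, 15 of 16 were higher and none lower at each time.

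Of the tight junction plaque and polarity proteins, all 16 in the tables were tested in endoderm and gastruloids and 15 in ES cells, and the list split. At 120 h 7 were lower in Hox-/- and 5 higher (median -0.11), against 25.5% of all genes lower and 24.9% higher. The lower ones were led by cingulin, Cgn (-2.33 ± 0.12), the Crumbs protein Crb3 (-6.11 ± 0.35) and the Par complex subunit Pard6b (-1.56 ± 0.12). In endoderm 10 were lower and 2 higher (median -0.26), led by Tjp3, the ZO-3 gene (-1.39 ± 0.10), and at 96 h 5 were lower and 2 higher (median -0.03), led by Cgnl1 (-0.62 ± 0.06). In ES cells 3 were higher and none lower. With Activin A 9 were higher and 4 lower at 96 h (median 0.41), and 7 were higher and 1 lower at 120 h (median 0.18), with Crb3 higher by 3.42 ± 0.25 and 3.83 ± 0.31.

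The other membrane proteins of the junction, 9 in the list, were also mixed. At 120 h 4 of 8 tested were lower in Hox-/- and 2 higher (median -0.31): tricellulin, Marveld2 (-3.18 ± 0.23), and the lipolysis-stimulated receptor Lsr (-0.55 ± 0.06) were lower, and Ildr2 was higher (1.20 ± 0.14). These 3 proteins belong to tricellular junctions. At 96 h 1 was higher and 2 lower, in endoderm 2 were higher and 5 lower, and in ES cells 1 of 6 was lower. With Activin A against Chiron, Marveld2 (1.60 ± 0.13 at 96 h, 2.92 ± 0.23 at 120 h) and Lsr (0.56 ± 0.05 and 0.71 ± 0.06) were higher and Ildr2 lower (-3.02 ± 0.13 and -1.01 ± 0.15), among 4 higher and 4 lower of 9 at 96 h and 4 higher and 5 lower of 9 at 120 h.

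A list of 17 other claudins in the tables left out the remaining 10. Of the 17, 6 had enough counts to be tested at 120 h, and 4 of them were lower in Hox-/- and none higher, with a median of -1.58, or -1.36 when values at the floor enter at their bound. Cldn1 was lower (-3.16 ± 0.52), and so, by little, was Cldn12 (-0.28 ± 0.06). Cldn8 held 1 count in the Hox-/- libraries. None of 6 was called at 96 h, 1 of 1 was lower in endoderm (Cldn12, -0.22 ± 0.05), and none of 2 was called in ES cells. With Activin A, 2 were higher and 3 lower of 8 at 96 h, and 4 were higher and 1 lower of 8 at 120 h, the 1 being Cldn12 (-0.28 ± 0.06). Cldn12 thus led the claudin sum in Hox-/- Activin A gastruloids at 120 h while its own level was not higher there.

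Of 9 repressors and markers of the mesenchymal state, all were tested at 120 h; 6 were higher in Hox-/- and 2 lower (median 0.81). Snai1, which encodes Snail, was higher by 1.69 ± 0.07, N-cadherin (Cdh2) by 0.81 ± 0.04 and Zeb1 by 1.02 ± 0.08. At 96 h 4 were higher and none lower, led by Zeb2 (0.57 ± 0.07), and in endoderm 5 were higher and 2 lower, led by Zeb1 (1.03 ± 0.06). In ES cells 1 of 6 was higher and 2 lower. With Activin A against Chiron at 96 h 1 was higher (Vim, the vimentin gene, 1.54 ± 0.05) and 4 lower, among them Snai1 (-1.20 ± 0.06) and Zeb1 (-1.78 ± 0.10). At 120 h 3 were higher and 1 lower, with Snai1 higher by 0.42 ± 0.10.

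**Figure D5:**
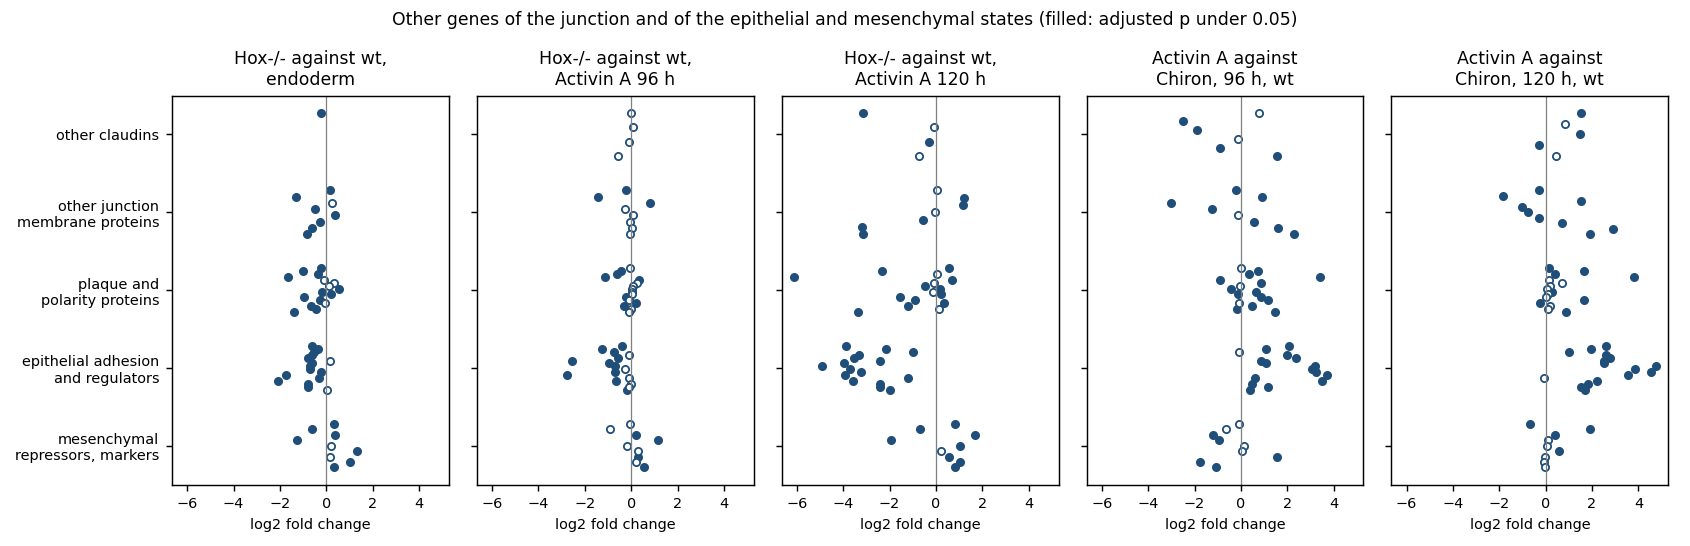
Log2 fold change of each tested gene of 5 lists (rows) in 3 genotype and 2 treatment comparisons (panels); filled points have an adjusted p under 0.05, wt is wild type, and genes with a group at the floor are not drawn. In the panel of Activin A at 120 h all 16 epithelial genes lie below 0, while the plaque and polarity genes lie on both sides of 0.

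Markers of several cell types also differed in these comparisons. Their counts stand against the shares of all genes called. In Hox-/- Activin A gastruloids these were 24.9% higher and 25.5% lower at 120 h, and 22.2% higher and 16.7% lower at 96 h. In Hox-/- endoderm they were 23.1% each way. With Activin A against Chiron they were 31.3% higher and 30.2% lower at 96 h, and 20.3% higher and 21.6% lower at 120 h. At 120 h, beside the lower claudins of Hox-/- Activin A gastruloids, 8 of 10 endoderm markers were lower in Hox-/- and none higher: their summed level was 325 to 337 CPM in wild type against 145 to 150 CPM in Hox-/-, where Ttr and Afp were at 0 and Hnf4a at the floor. All 7 presomitic and somitic mesoderm markers were higher in Hox-/- (464 CPM in each wild-type library against 859 to 864 CPM), while 6 of 7 neural markers were lower and 1 higher (71.6 to 72.7 against 19.4 to 22.3 CPM). Of 8 pluripotency markers 6 were lower and 1 higher (124 to 125 against 36.5 to 38.6 CPM). Surface ectoderm markers were near absent in both (2.53 to 2.59 and 0.690 to 0.748 CPM), with 1 of 2 tested lower. Endothelial markers, which bear on Cldn5, were called as higher for 4 of 8 tested (73.8 to 82.1 against 99.6 to 103 CPM). At 96 h, beside the lower Cldn6, Cldn7 and Cldn9, the endoderm markers summed to 270.1 to 303 CPM in wild type against 27.0 to 30.4 CPM in Hox-/- (8 of 10 lower), the mesoderm markers to 123 to 132 and 148 to 162 CPM (1 of 7 higher, 3 lower), and the endothelial markers to 36.3 to 40.3 and 35.7 to 38.5 CPM (1 of 8 lower). Neural markers stood at 34.5 to 38.9 and 43.7 to 49.8 CPM there, with 3 of 7 higher and 1 lower, and pluripotency markers at 1075 to 1102 and 940 to 957 CPM, with 1 of 8 higher and 6 lower. In endoderm all 8 tested endoderm markers and all 8 pluripotency markers were lower in Hox-/- (pluripotency 829 to 972 against 244 to 263 CPM). Beside the lower Cldn5, 4 of 7 endothelial markers were lower there (47.3 to 49.8 against 29.2 to 31.4 CPM). These were Pecam1 (-1.40 ± 0.14), Kdr, Egfl7 and Plvap, while Esam, Tek and Cdh5 had negative values that were not called. The endothelial sum was highest in ES cells (wild type 146 to 148, Hox-/- 210 CPM). Cdh5, Tie1, Emcn and Erg were at the floor in those cells, so the sum cannot be read as a number of endothelial cells. Of 4 mesoderm markers tested in endoderm, Meox1, Tbx6 and Msgn1 were lower (55.6 to 62.0 against 32.5 to 34.0 CPM). Of 3 neural markers tested, Tubb3 (3.02 ± 0.12) and Nkx6-1 (0.93 ± 0.31) were higher and Sox3 lower (-0.52 ± 0.13). The neural sum was 15.4 to 17.0 CPM in wild type against 44.0 to 53.4 CPM in Hox-/-. Of 2 surface ectoderm markers tested, Krt5 was called as higher, with its wild-type libraries at the floor. Between treatments, endoderm markers were higher with Activin A in 6 of 10 and lower in 1 at 96 h (109 to 116 CPM in Chiron), and higher in 10 of 10 at 120 h (47.8 to 54.4 CPM in Chiron). The lower 1 was the chemokine receptor Cxcr4 (-0.73 ± 0.06), named after its values were seen. The mesoderm markers were lower in 7 of 7 at 96 h (639.6 to 779 CPM in Chiron) and in 4 of 7 at 120 h (755 to 795 CPM in Chiron). Neural markers were lower with Activin A in 5 of 7 and higher in 1 (Sox3) at 96 h, though their sum was lower in Chiron (23.6 to 26.1 CPM), and higher in 3 and lower in 1 at 120 h (46.2 to 46.4 CPM). Pluripotency markers were higher in 2 of 8 and lower in 4 at 96 h (263 to 344 CPM in Chiron), and lower in 6 at 120 h (331 to 347 CPM). Endothelial markers were higher in 4 of 8 and lower in 2 at 96 h (25.4 to 27.8 CPM in Chiron), and higher in 5 and lower in 1 at 120 h (27.9 to 29.4 CPM). Of 2 surface ectoderm markers tested, none was called at 96 h and 1 was higher with Activin A at 120 h. The part of these markers in the junction results was not tested.

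Across the 10 group means, likeness of pattern was measured as Pearson's r of log2(mean CPM + 1), a description over 10 points that share libraries and cultures. Among 11711 genes with a group mean of at least 10 CPM, Ocln was most like Spint2 (r = 0.991) and Epcam (0.966), both genes of epithelial cells, and Epcam (0.944) was also among the nearest to Cldn3, after the spectrin gene Sptb (0.958). Cldn6 was most like Stard10 (0.964) and the tight junction plaque gene Cgn (0.962), and Cldn7 most like the ceramide synthase gene Cers4 (0.977) and Cobll1 (0.970). Cldn4 was nearest to the syntaxin genes Stx3 (0.964) and Stx8 (0.950), Cldn5 to Aldh18a1 (0.944) and 2210016L21Rik (0.935), and Cldn9 was like Klhl18 (0.940). Tjp1 was nearest to Kazn (0.982) and mt-Co1 (0.980), and F11r to Eif4enif1 (0.981) and Tbx6 (0.974), a transcription factor of presomitic mesoderm. Among the 9 genes themselves the closest pairs were Cldn6 with Cldn7 (r = 0.92) and Cldn3 with Ocln (r = 0.91), and the least alike were Tjp1 and F11r (r = -0.62).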

How the data were processed

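RNA-seq was measured in 22 libraries. The authors deposited raw counts per gene and FPKM per gene in 4 pairs of tables; cutadapt 1.16, STAR 2.7.7a, Cufflinks 2.2.1 and the build mm10 stand in the submitters' processing notes. The counting tool, the annotation and the use of strand are not given in the sources used here; the kit was a stranded poly(A) kit per the labels. From the counts, CPM was computed and edgeR 4.0.16 (R 4.3.3) was run: filterByExpr, TMM scaling, quasi-likelihood tests, and Benjamini-Hochberg adjustment over all genes tested, with a threshold of 0.05. SE is the absolute log2 fold change divided by the root of the F statistic. For large changes on few counts it can be smaller than counting error alone. For Cldn7 it was 0.18 and 0.21 for differentiation in wild type and Hox-/-, and 0.49 for the interaction of the same groups. Each table was fitted whole; ES cells and endoderm were joined for differentiation. All deposited columns were mapped to samples (0 unmapped). Alternatives were other scalings and filters, DESeq2 1.42.0, the replicate number as a block, limma 3.58.1 on log2 FPKM, and leaving out each library. The script was tested on simulated data.

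All 9 genes are named; of each wider list, at most the 3 called members with the smallest p in genotype and treatment comparisons; and for each of the 9, the 2 genes most alike in pattern, of which 1 is not reported here. The members and lists were chosen with earlier results of these data known. Of the list symbols, 3 were not matched in the tables. Counting intervals cover counting error only.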

Additional observations from a re-analysis of the deposited data

Results flagged for a closer look

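Each result here is one in which an effect on a tight junction gene differed between 2 settings by a test of the difference itself (an interaction in edgeR's quasi-likelihood fit, adjusted p under 0.05). Groups of 2 or 3 libraries were not tested for a library whose value stands apart from the rest of its group; each library was left out in turn instead.

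The effect of the Hox-/- genotype in Activin A gastruloids differed between 120 h and 96 h by a log2 value of -4.29 for Cldn4, -4.03 for Cldn3, -3.46 for Cldn7, -2.80 for Ocln, -1.54 for Cldn6, 1.79 for Cldn5, 0.68 for F11r and 0.30 for Tjp1. The call of Cldn5 was lost under DESeq2 (adjusted p = 0.116), in limma on log2(FPKM + 1) and without any of 5 of the 8 libraries (0.0550 to 0.108), and that of Tjp1 in limma on FPKM. For Cldn3 and Cldn4 both genotype effects passed the test, with a higher level in Hox-/- at 96 h and a lower one at 120 h, and for F11r they passed it in the other order. The 96 h effects were small and their calls less stable. That of Cldn4 was lost under DESeq2, with total counts as the scaling and without wild-type replicate 1. That of Cldn3 was lost in limma on log2(FPKM + 1), and that of F11r without 1 wild-type library. The 120 h libraries were shallower than the 96 h ones in both genotypes, and the part of depth was not tested.

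The effect of Activin A against Chiron differed between 120 h and 96 h by 2.53 for Cldn9, 1.61 for Cldn6, 1.17 for F11r, 0.68 for Cldn4 and -1.06 for Cldn7. The call of Cldn7 was lost without Chiron replicate 1 of 120 h (adjusted p = 0.0747) and in limma on FPKM. Cldn9 was lower with Activin A at 96 h and higher at 120 h, both past the test, though the call at 120 h was lost without Chiron replicate 1.

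The effect of the genotype differed between endoderm and ES cells by -1.92 for Cldn5, -1.22 for Cldn6 and -0.48 for Cldn4. These calls were lost without wild-type ES replicate 1 for Cldn5 (adjusted p = 0.0881), without Hox-/- ES replicate 2 for Cldn6 (0.0901), and under DESeq2 (0.203), with a stricter count filter (0.0549) or without any of 8 of the 10 libraries for Cldn4 (0.0679 to 0.16).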

How the results depend on the processing

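Of 974 log2 changes of single genes recomputed under other settings, 911 kept their direction and their side of the threshold, as did 595 of 658 with 1 library left out. Called members fell from 1 to 0 in ES cells under both limma fits (0 to 1 with a library left out, the 0 without wild-type replicate 1). In Activin A gastruloids at 96 h they fell from 8 to 4 in both limma fits and 5 in DESeq2 (5 to 7 with a library left out, the 5 without wild-type replicate 1). With at least 10 counts in every library, which tests fewer genes, they fell to 4 at 96 h, 3 for genotype at 120 h, 4 for genotype by time, 3 and 4 for time in wild type and Hox-/-, 5 and 4 for differentiation in wild type and Hox-/-, and 1 for genotype by differentiation (main 3; 1 to 3 with a library left out, the 1 without wild-type ES replicate 1 or Hox-/- ES replicate 2). The cause was not tested for the other changes.

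Genes called in all fell from 3168 in ES cells to 1099 (DESeq2), 52 and 372 (limma with 1 and with 0.1 added), and ran from 1477 to 3372 with a library left out. They fell from 6546 at 96 h to 3647, 3078 and 2787, from 6544 to 4264 for genotype by time, and from 10655 to 6670 for treatment at 96 h (limma with 0.1 added).

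Signs reversed only for values that were not called: Cldn4 in ES cells (-0.005028 with no filter, -0.001052 and -0.001091 in limma, -0.062613 to 0.064418 with a library left out, among them -0.017087), Cldn6 in ES cells (-0.31585 to 0.30481 with a library left out, among them 0.23677), Cldn9 for genotype by time (-0.56194, limma with 1 added), Cldn6 over time in wild type (-0.038817 to 0.19275 with a library left out), Tjp1 for treatment at 120 h (-0.14214 to 0.001045), Ocln for treatment by time (-0.18424 and -0.010728 in limma, -0.13121 to 0.51971 with a library left out), Tjp1 for differentiation in Hox-/- (-0.002317 to 0.089396) and Cldn3 for genotype by differentiation (-0.79829 to 0.000653).

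Total counts in place of TMM moved the median of all genes by -0.112 for genotype at 120 h, 0.104 for time in Chiron gastruloids and 0.117 for wild-type differentiation, and the share of calls that were higher from 57.0% to 42.5% at 96 h and from 49.4% to 34.6% at 120 h. On the FPKM scale 8 of 10 groups kept their rank for Cldn4, Cldn7 and F11r.

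With the replicate number as a block, the called members were 1 in ES cells, 7 in endoderm, 8 at 96 h and 8 at 120 h. Same-numbered libraries deviated together with correlations of -0.084 to 0.119. In groups of 2 libraries the deviations mirror each other, so these values cannot show whether a number marks a shared culture or day. Of the list counts, 509 of 572 stayed within 1.5 times, as did 259 of 286 with a library left out. In ES cells epithelial genes called fell from 7 to 1 and pluripotency markers from 5 to 0 (limma with 1 added), and at 120 h other claudins from 4 to 1 (limma with 0.1 added). The limma fits were not run for differentiation, where FPKM tables were normalized separately. Groups of 2 or 3 libraries limit every estimate of spread, and in the library of 9.11 M counts 3 counts are 0.329 CPM.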
